A study of Homo sapiens with 6 samples.

Results

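The genes described are those of the human proteasome: every protein-coding gene whose symbol starts with PSMA, PSMB, PSMC, PSMD, PSME, PSMF or PSMG followed by a number, plus POMP. PSMB8 and PSMB9 were left out by that rule. The rule uses names only and no measured value, and it found 47 genes among the 19968 protein-coding genes and 60843 genes of the table. Total RNA from SW872-S cells, a human liposarcoma cell line, was sequenced in 6 libraries. 3 libraries carry the genotype TP53INP2 NC, a control written NC below whose abbreviation the labels do not spell out. 3 carry TP53INP2 OE, written TP53INP2_OE below, in which a plasmid was used to overexpress TP53INP2, a protein known for roles in autophagy. Both groups are cells of the same line, and the study asked what TP53INP2 does in dedifferentiated liposarcoma. The labels do not say whether libraries of one group stem from separate cultures, and the p-values below therefore reflect library-to-library spread alone, possibly technical. In a bulk library, fewer cells of a kind and less RNA per cell cannot be told apart.

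The proteasome is the protease that degrades proteins tagged with ubiquitin. Its barrel, the 20S core, has outer rings of alpha subunits that form a gate and inner rings of beta subunits, some of which cut peptide bonds. The 19S particle that caps the barrel has a base, whose ATPases unfold the substrate, and a lid, which removes the ubiquitin; separate chaperones assemble core and cap, and other activators can take the cap's place. Tumour cells are known to depend on it, and its catalytic beta subunits are drug targets.

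Levels are FPKM, a read count divided by gene length and by a total set per library. The libraries held between 16038062 and 17607612 reads, recovered from the deposited values. TP53INP2 itself was at 10.6, 9.45 and 9.67 FPKM in the NC libraries and at 18.9, 23.4 and 27.1 FPKM in the TP53INP2_OE libraries, a log2 fold change of 1.13 ± 0.12 (SE; limma, adjusted p = 0.00282), which matches the labels. RNA of the plasmid and of the cell's own gene cannot be told apart in these values. Of 6 mesenchymal markers, VIM, CD44, COL1A1 and SPARC were high and COL1A2 and THY1 were near 0, and their summed level, mostly VIM, was 1083 to 1132 FPKM in NC and 1076 to 1121 FPKM in TP53INP2_OE. Of the 4 high ones, COL1A1 fell from 121 ± 5.13 to 89.0 ± 5.49 FPKM and CD44 rose from 142 ± 3.90 to 156 ± 1.08 FPKM (SD, n = 3; limma adjusted p = 0.00317 and 0.0192), and COL1A1 remained lower in the fit with GC content and length removed that is described below (adjusted p = 0.0208); the CD44 call was lost there (0.246) and without NC replicate 1 (0.0736) or 3 (0.0589). The 5 leukocyte markers summed to at most 0.261 FPKM, none of them listed at 0 in every library. The 4 adipocyte markers summed to 12.5 to 13.7 FPKM in NC and to 11.4 to 12.4 FPKM in TP53INP2_OE, nearly all of it LPL, with ADIPOQ and FABP4 listed at 0 in all 6 libraries; LPL did not pass the threshold (adjusted p = 0.0781), but was lower in the GC and length fit (-0.23, adjusted p = 0.0398). The 4 epithelial markers summed to 7.89 to 8.50 FPKM in NC and to 6.24 to 7.18 FPKM in TP53INP2_OE, nearly all of it KRT8. KRT8 was lower (log2 fold change -0.25, limma adjusted p = 0.0146). Its call was lost in the GC and length fit (0.229) and without NC replicate 1 (0.0546) or 2 (0.0547). The 3 endothelial markers summed to 34.5 to 39.2 FPKM in NC and to 32.0 to 33.4 FPKM in TP53INP2_OE, mostly CDH5. CDH5 was lower (-0.21, limma adjusted p = 0.0323), while PECAM1 and VWF did not pass. The CDH5 call was lost in the GC and length fit (0.408) and without NC replicate 1 (0.0703) or 3 (0.0677) or any TP53INP2_OE replicate. The part of these marker lists in the results below was not tested.

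Proteasome genes moved in both directions and by small amounts. Of the 47 genes, 45 averaged 0.5 FPKM or more across the 6 libraries and were tested. 13 rose and 12 fell in TP53INP2_OE at an adjusted p below 0.05, and 20 were not past the threshold (limma on log2(FPKM + 1), Benjamini-Hochberg adjustment over all 14791 tested genes). The risers were 28.9% of the members tested, against 16.4% of all tested genes, and the fallers were 26.7%, against 18.6%. Proteasome genes were higher expressed than most, with a median of 26.4 FPKM against 4.81 FPKM over all tested genes. Among the 40 members that averaged 5 FPKM or more, 37.5% rose and 30% fell, against 29.4% and 33.1% of all genes at that level. The members' shares thus lay closer to the background once low genes were left out. Fold changes ran from -0.54 for PSMB5 to 0.34 for PSME4 on the log2(FPKM + 1) scale, and none reached 1; the added 1 makes changes of weakly expressed genes look smaller. The median change was -0.0043 over the members and 0.0032 over all tested genes. The 3 libraries of a group lay entirely above or below those of the other for 32 members, or 71.1%, against 50.8% of all tested genes. Without NC replicate 1, 8 members rose and 6 fell, and over all tested genes 1460 rose and 1816 fell. Without NC replicate 2, 8 members rose and 8 fell, and over all tested genes 1614 and 1945. Quantile normalization of the libraries gave 18 members that rose and 8 that fell. All tested genes shifted the same way there, with 2712 that rose and 2497 that fell, against 2430 and 2753 in the main fit.

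The calls were not equally firm. Where the relation of the fold change to GC content and gene length, shared by genes across the whole table, was fitted out, 5 members rose and 6 fell, against 4.53% and 5.88% of all genes in that fit. In that GC and length fit, PSMG2, PSMD7 and PSME4 remained higher, and PSMB5, PSMB10, PSMC3 and PSMD3 remained lower; PSMC4 and PSMD2 newly rose, and PSMA5 and PSMB1 newly fell. Across 18 alternative settings, 4 members kept their call in every one: PSMG2 rose, and PSMB5, PSMC3 and PSMD3 fell. In a fit of recovered whole reads with voom, which weights genes by their depth, PSMB6, PSMC1, PSMD10, PSME3, PSMF1 and POMP passed the threshold too, at adjusted p of 0.00642 to 0.0413, and PSMB3 lost its call (adjusted p = 0.0712).

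**Figure D1:**
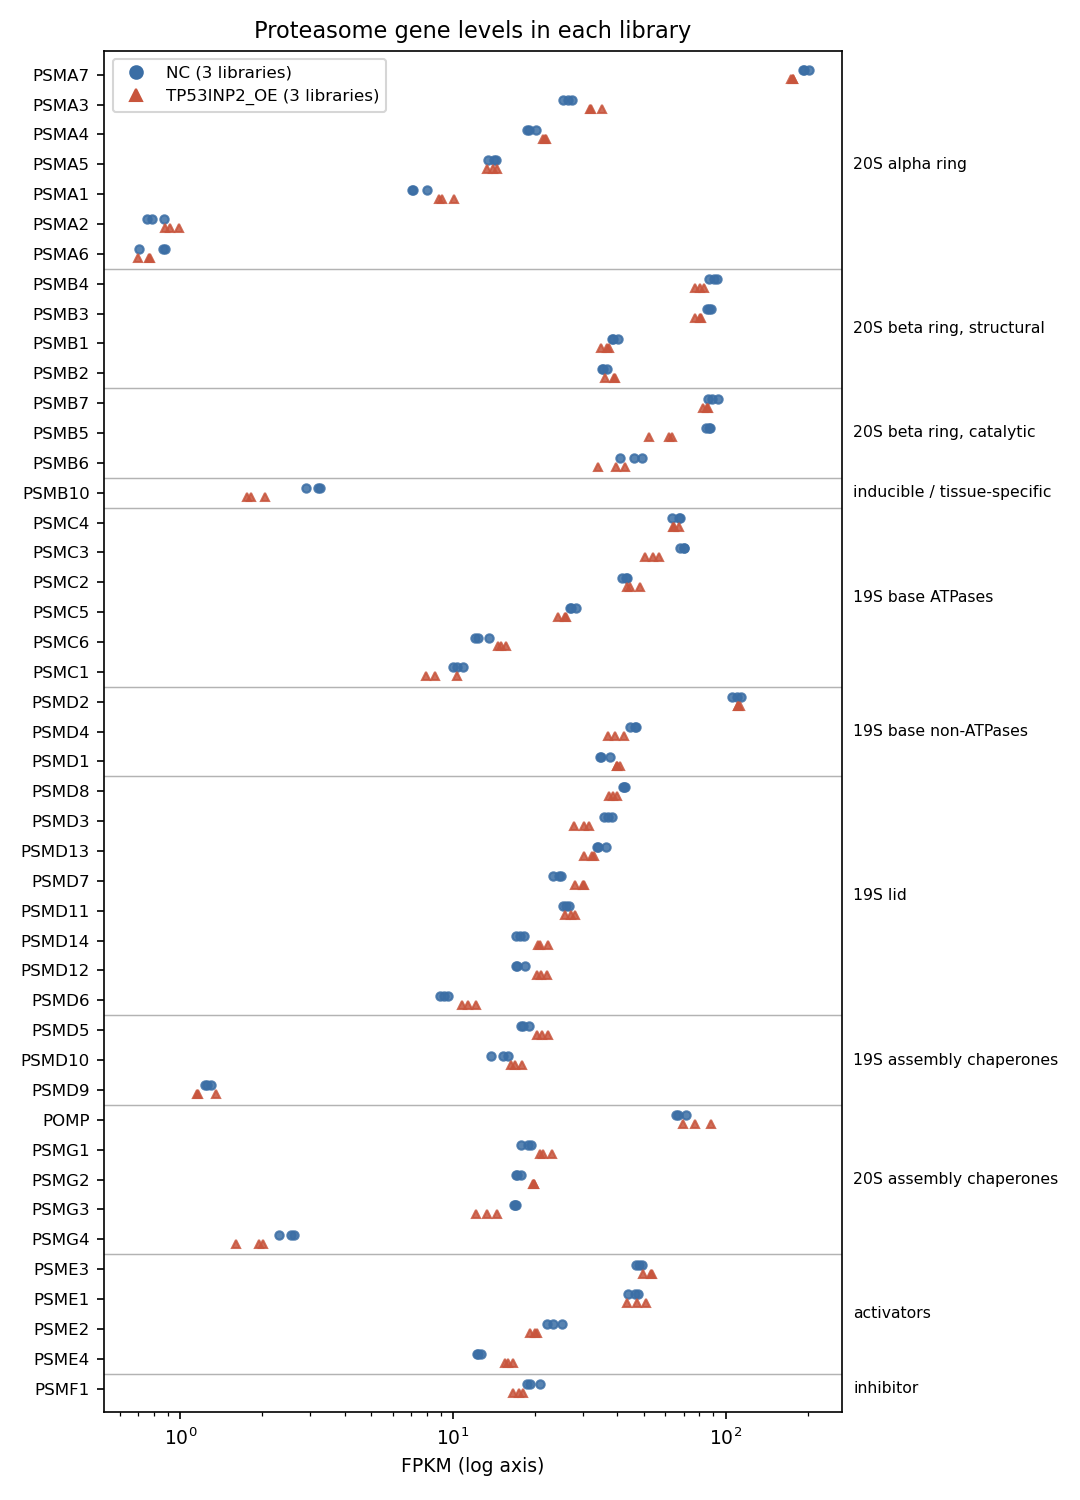
FPKM on a log axis of the 45 tested proteasome genes in each of the 6 libraries, grouped by role; circles are NC and triangles are TP53INP2_OE. Most genes sit between 10 and 100 FPKM, PSMA7 is the highest, and PSMA2, PSMA6, PSMB10, PSMD9 and PSMG4 form a low tail.

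The 300 bases around the start of transcription (250 before and 50 after it) are shown for the 4 genes whose call held under every setting, from RefSeq on GRCh38.p14, 5′ to 3′ on the gene's strand; where RefSeq has several starts, the one nearest the gene's start in the table was taken. Capitals mark matches to the antioxidant response element core TGACNNNGC, bound by factors of the NFE2L1 and NFE2L2 type, and to the CCAAT box, each searched on both strands.
PSMB5, chr14:23035171-23035470, minus strand: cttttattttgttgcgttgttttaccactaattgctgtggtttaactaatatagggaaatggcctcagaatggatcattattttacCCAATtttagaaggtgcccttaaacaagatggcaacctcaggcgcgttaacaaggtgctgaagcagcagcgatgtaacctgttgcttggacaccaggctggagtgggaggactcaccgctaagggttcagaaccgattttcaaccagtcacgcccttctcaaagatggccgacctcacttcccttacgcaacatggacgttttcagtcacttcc
PSMC3, chr11:47426390-47426689, minus strand: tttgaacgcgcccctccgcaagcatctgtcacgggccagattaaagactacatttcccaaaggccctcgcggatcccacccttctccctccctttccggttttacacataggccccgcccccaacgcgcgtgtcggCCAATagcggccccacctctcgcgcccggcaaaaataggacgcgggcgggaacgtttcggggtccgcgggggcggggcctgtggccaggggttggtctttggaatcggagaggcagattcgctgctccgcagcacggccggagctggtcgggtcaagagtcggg
PSMD3, chr17:39980557-39980856, plus strand: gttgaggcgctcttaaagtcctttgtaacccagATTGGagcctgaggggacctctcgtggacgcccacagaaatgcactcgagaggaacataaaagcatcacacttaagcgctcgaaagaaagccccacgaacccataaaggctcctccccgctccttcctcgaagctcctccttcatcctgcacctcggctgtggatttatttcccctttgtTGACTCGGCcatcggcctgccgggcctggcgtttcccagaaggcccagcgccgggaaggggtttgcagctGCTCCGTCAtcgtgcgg
PSMG2, chr18:12658488-12658787, plus strand: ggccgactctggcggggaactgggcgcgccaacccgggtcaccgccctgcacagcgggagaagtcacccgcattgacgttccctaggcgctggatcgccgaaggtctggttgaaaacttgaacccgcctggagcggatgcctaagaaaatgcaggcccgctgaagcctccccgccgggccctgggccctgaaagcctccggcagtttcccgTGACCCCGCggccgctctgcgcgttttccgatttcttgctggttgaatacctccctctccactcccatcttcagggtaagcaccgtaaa
The PSMD3 window held 2 matches to the antioxidant response element core, 1 on each strand, and the PSMG2 window held 1. The PSMB5, PSMC3 and PSMD3 windows each held 1 CCAAT box. A match is a run of letters and was not tested as a site.

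Among the members, PSMB5, a catalytic beta subunit, had the largest fall on the log2(FPKM + 1) scale; in percent of FPKM, the fall of PSMB10, a low gene, was larger. The summed level of the catalytic subunits, over PSMB5, PSMB6 and PSMB7, was 221 ± 8.08 FPKM in NC and 183 ± 6.30 FPKM in TP53INP2_OE (SD, n = 3 each), a difference of -17.4%, and the groups did not overlap. Most of that difference was in PSMB5. The gene (ENSG00000100804, GRCh38 chromosome 14, 23016543 to 23035230, minus strand) encodes the subunit with chymotrypsin-like activity, the main target of proteasome inhibitors. PSMB5 was at 87.5, 87.1 and 85 FPKM in NC and at 62.1, 52.5 and 63.7 FPKM in TP53INP2_OE. All 3 TP53INP2_OE libraries lay well below the 3 NC libraries. The log2 fold change of PSMB5 was -0.54 ± 0.07 (SE; adjusted p = 0.00351), and -0.45 after removal of the GC and length relation (adjusted p = 0.0126). Over the 18 alternative settings it ran from -0.59 to -0.44.

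The catalytic partners of PSMB5 in the ring did not pass the threshold. PSMB7, which carries the trypsin-like activity and was the highest gene of this role, was at 93.8, 86.0 and 88.7 FPKM in NC and at 85.4, 86.4 and 82.4 FPKM in TP53INP2_OE. Its groups overlapped, and the log2 fold change of -0.08 ± 0.04 (SE) was not past the threshold (adjusted p = 0.197). PSMB6, which carries the caspase-like activity, was at 49.1, 46.2 and 41.0 FPKM in NC and at 42.7, 39.4 and 34.1 FPKM in TP53INP2_OE. Its groups overlapped as well (log2 fold change -0.23, adjusted p = 0.112). At that size PSMB6 passed in 4 of the alternative settings, with adjusted p of 0.0490 among genes of 5 FPKM or more, 0.0406 among protein-coding genes, 0.0131 with voom and 0.0149 with a replicate block. PSMB5 was at 96.8% ± 4.17 of the PSMB7 level in NC and at 70.3% ± 8.55 of it in TP53INP2_OE (SD, n = 3), with no overlap between the groups. Relative to PSMB6, PSMB5 was at 178%, 189% and 207% in NC and at 146%, 133% and 187% in TP53INP2_OE, and these groups overlapped.

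The inducible catalytic subunits, which replace the constitutive ones in the immunoproteasome, were low. PSMB10, the replacement for PSMB7, was at 3.21, 3.27 and 2.90 FPKM in NC and at 2.05, 1.75 and 1.82 FPKM in TP53INP2_OE. The groups were apart, with a log2 fold change of -0.52 ± 0.07 (SE; adjusted p = 0.00371) and of -0.25 with GC content and length fitted out (adjusted p = 0.0441). These values rest on 48 to 94 reads per library, and in GENCODE release 29 another annotated protein-coding gene, AC040162.1, covers 34.7% of the PSMB10 exon bases on the same strand. PSMB10 was at 3.50% ± 0.27 of the PSMB7 level in NC and at 2.21% ± 0.19 in TP53INP2_OE (SD, n = 3), also without overlap. The other inducible genes, PSMB8 and PSMB9, are outside the rule. PSMB8, the replacement for PSMB5, averaged 8.69 FPKM in NC and 6.49 FPKM in TP53INP2_OE, and PSMB9, the replacement for PSMB6, 8.09 and 6.18 FPKM. PSMB8 was at 10.1% ± 0.34 of the PSMB5 level in NC and at 11.0% ± 0.76 in TP53INP2_OE, where the groups overlapped. PSMB11, the thymus form, had 4 reads in NC replicate 3 and none in the other libraries, and was not tested.

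**Figure D2:**
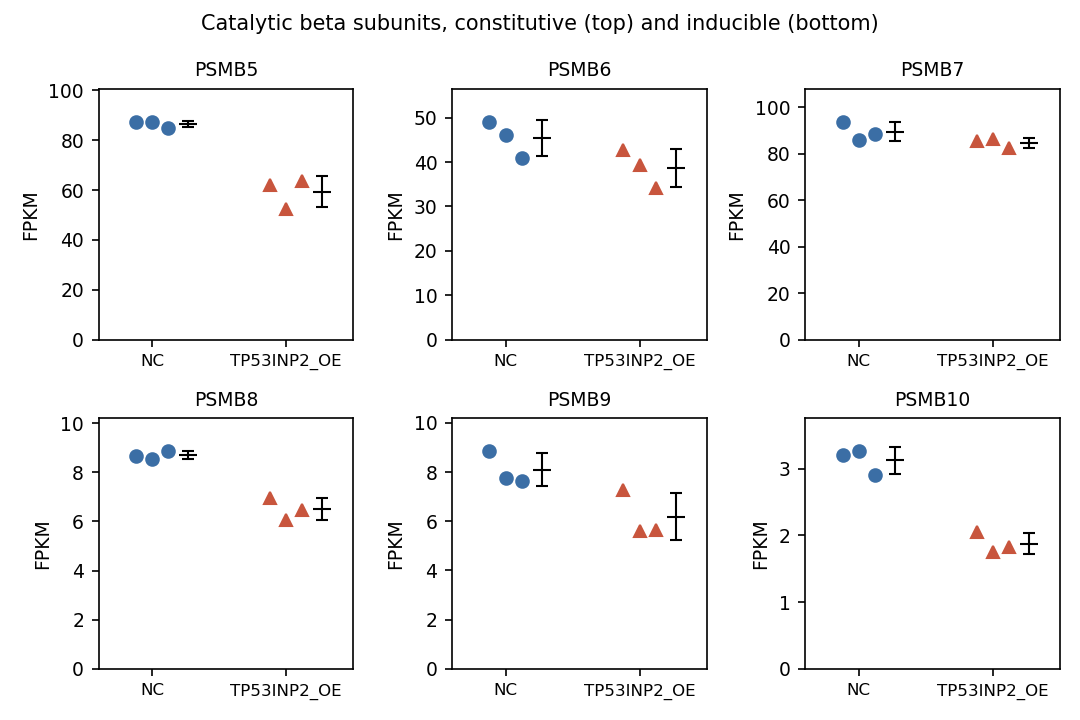
FPKM of the constitutive catalytic subunits PSMB5, PSMB6 and PSMB7 (top) and of the inducible PSMB8, PSMB9 and PSMB10 (bottom), with 1 point per library and the mean ± SD of 3 libraries beside it. PSMB5 falls from about 87 FPKM to between 52.5 and 63.7 FPKM, while the PSMB6 and PSMB7 groups overlap.

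Of the 4 structural beta subunits, which build the inner ring without cutting peptides, 2 fell. PSMB4, the highest of them, was at 92.7, 90.3 and 87.0 FPKM in NC and at 80.7, 77.2 and 83.3 FPKM in TP53INP2_OE. The groups were apart and the log2 fold change was -0.16 ± 0.04 (SE; adjusted p = 0.0243). PSMB3 was at 88.0, 85.4 and 86.8 FPKM in NC and at 81.3, 76.9 and 80.6 FPKM in TP53INP2_OE, also apart, with -0.12 ± 0.03 (SE; adjusted p = 0.0314) and with 0.01 once GC content and length were fitted out. PSMB1 averaged 39.1 FPKM in NC and 36.3 FPKM in TP53INP2_OE and did not pass the threshold (adjusted p = 0.0881), although it did with GC content and length fitted out, at -0.25 (adjusted p = 0.0206). PSMB2 averaged 35.8 and 38.0 FPKM, and its groups overlapped. Over the 7 constitutive beta subunits, 3 fell and none rose. In the fit of genes with a mean of 5 FPKM or more, 33.1% of all genes fell and 29.4% rose. The PSMB3 call was lost without NC replicate 1, 2 or 3 or without TP53INP2_OE replicate 2 or 3 (adjusted p from 0.0603 to 0.107), and that of PSMB4 without NC replicate 1 or 2 or without TP53INP2_OE replicate 1 or 2 (0.0533 to 0.0863).

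The outer alpha ring, which gates the core, gave mixed calls: of 7 tested genes, 3 rose and 1 fell. Risers thus made up 42.9% and fallers 14.3%, where the whole tested set had 16.4% and 18.6%. Restricted to genes averaging at least 5 FPKM, that background was 29.4% higher and 33.1% lower. PSMA2 and PSMA6 lay below this level. PSMA7, the highest of all members, was at 201, 193 and 191 FPKM in NC and at 173, 176 and 177 FPKM in TP53INP2_OE. Its groups were apart and the log2 fold change was -0.15 ± 0.03 (SE; adjusted p = 0.0126), but it was 0.01 under quantile normalization and 0.02 after removal of the GC and length relation. PSMA3 was at 25.2, 27.3 and 26.4 FPKM in NC and at 32.0, 35.1 and 31.7 FPKM in TP53INP2_OE, every one above the NC libraries (log2 fold change 0.31 ± 0.05, SE; adjusted p = 0.00597). PSMA1 was at 7.12, 8.04 and 7.07 FPKM in NC and at 8.89, 9.08 and 10.1 FPKM in TP53INP2_OE, again apart (0.30 ± 0.07, SE; adjusted p = 0.0153). The smallest of the called increases was that of PSMA4, at 19, 18.6 and 20.1 FPKM against 21.9, 21.4 and 21.7 FPKM (0.16 ± 0.04, SE; adjusted p = 0.0209). With GC content and length fitted out, PSMA1, PSMA3 and PSMA4 were at 0.26, 0.11 and 0.02 and were not past the threshold. Without NC replicate 1 the calls of PSMA1 (adjusted p = 0.0577) and PSMA7 (adjusted p = 0.0502) were lost. That of PSMA4 was lost without NC replicate 1 or 2 or without TP53INP2_OE replicate 1 or 3 (adjusted p from 0.0536 to 0.0733). PSMA5 averaged 14.0 FPKM in NC and 13.9 FPKM in TP53INP2_OE, and its change was -0.21 once those were fitted out (adjusted p = 0.0451). PSMA8, the alpha subunit of the testis, had 1 read in 1 library, TP53INP2_OE replicate 2, and was not tested.

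PSMA2 and PSMA6 stood far below the other core subunits, although the alpha ring holds 1 copy of each alpha subunit. PSMA2 was at 0.869, 0.758 and 0.785 FPKM in NC and at 0.875, 0.990 and 0.920 FPKM in TP53INP2_OE, and PSMA6 was at 0.877, 0.703 and 0.863 FPKM against 0.769, 0.698 and 0.777 FPKM. Neither passed the threshold, with adjusted p of 0.459 and 0.720. Across the 14 constitutive core genes the mean level ran from 0.781 FPKM for PSMA6 to 185 FPKM for PSMA7, a ratio of 237. In the PSMA6 and PSMA2 transcripts with the longest coding part, 80% and 51.0% of 50-base stretches also occurred in transcripts of other genes. PSMC1 and PSMD7, at 97.5% and 46.9% by this measure, which counts both strands, averaged 9.68 and 26.8 FPKM. In GENCODE release 29 another gene covers 14.1% of the PSMA6 exon bases and 14.6% of the PSMA2 exon bases on the same strand. PSMA1, PSMB10 and PSMD9 were also covered in this way by more than 10%, and the median of these 5 members was 1.24 FPKM, against 31.4 FPKM for the other 40 tested members. The sources used here do not say how reads shared between genes were assigned. The part of the overlaps and of the shared stretches in these low levels was not tested. Levels also depend on the length by which reads are divided. Rescaled to coding length, the 11 core genes without such an overlap spanned a ratio of 5.14, against 13.3 in FPKM as deposited.

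**Figure D3:**
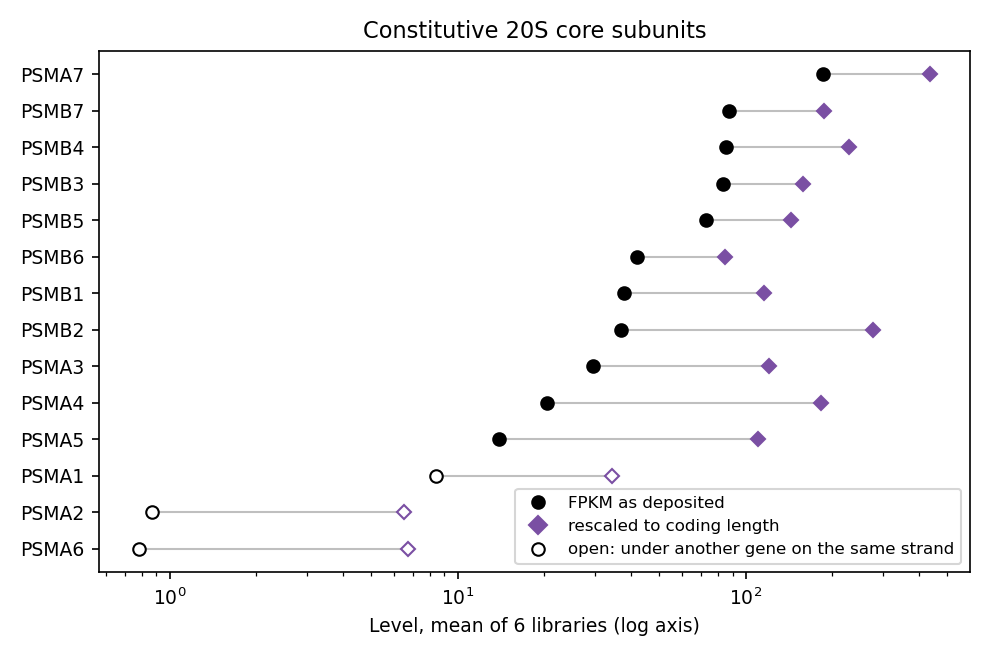
Mean level over 6 libraries, on a log axis, of the 14 constitutive 20S core subunits, as deposited FPKM (circles) and rescaled to coding length (diamonds); open symbols mark genes with more than 10% of their exon bases under another gene on the same strand. PSMA2 and PSMA6 lie lowest on both scales, and the genes without an overlap lie closer together after rescaling.

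The summed level of the 14 constitutive core genes was 737 ± 15.2 FPKM in NC and 672 ± 7.58 FPKM in TP53INP2_OE (SD, n = 3 each), a difference of -8.75% without overlap between the groups. The 17 members of the 19S particle differed by less, at 629 ± 9.06 and 616 ± 5.36 FPKM, or -2.12%, also apart. That sum lacks the 19S subunits ADRM1 and SEM1, which are outside the rule. They averaged 84.9 and 3.85 FPKM in NC and 64.9 and 3.41 FPKM in TP53INP2_OE. Over all 47 members the sums were 1676 ± 23.7 and 1617 ± 10.4 FPKM, or -3.53%, again apart. Rescaled to TPM, the differences were -7.67% for the core, -0.96% for the 17 members of the 19S particle and -2.39% for all members. On that scale the groups overlapped for the 19S particle and stayed apart for the core and for all members. No test was run on these sums, and the relation to GC content and length was not fitted out of any summed level given here.

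The ATPases of the 19S base, a ring of 6 related subunits, included 1 gene that rose and 1 that fell, or 16.7% each. In the fit of genes with a mean of 5 FPKM or more, 29.4% of all genes rose and 33.1% fell. PSMC3 (ENSG00000165916, GRCh38 chromosome 11, 47418769 to 47426473, minus strand) was at 70.2, 68.0 and 70.4 FPKM in NC and at 54.1, 50.7 and 57.1 FPKM in TP53INP2_OE. The TP53INP2_OE libraries lay below all NC libraries, with a log2 fold change of -0.36 ± 0.05 (SE; adjusted p = 0.00341) and of -0.17 with GC content and length fitted out (adjusted p = 0.0432). PSMC6, another ATPase of the ring, was at 12.1, 12.4 and 13.5 FPKM in NC and at 14.7, 15.6 and 15.1 FPKM in TP53INP2_OE, apart and higher (0.24 ± 0.05, SE; adjusted p = 0.0142). That difference was 0.04 with GC content and length fitted out, and the PSMC6 call was also lost without NC replicate 1 (adjusted p = 0.0525) or 2 (adjusted p = 0.0526). The highest ATPase gene, PSMC4, was at 67.3, 67.9 and 63.3 FPKM in NC and at 67.4, 64.0 and 64.4 FPKM in TP53INP2_OE, with overlap (-0.02 ± 0.04, SE; adjusted p = 0.750). PSMC4 was at 0.14 once GC content and length were fitted out (adjusted p = 0.0330). PSMC2 averaged 42.8 and 45.5 FPKM in NC and TP53INP2_OE, PSMC5 27.3 and 25.3 FPKM, and PSMC1 10.4 and 8.96 FPKM, none past the threshold. The PSMC1 value carries a limit, since 75.8% of its exon bases lie opposite exons of NRDE2 and the use of strand in counting is not given. Without TP53INP2_OE replicate 3, PSMC1 passed at -0.30 (adjusted p = 0.0196).

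The base also has large scaffold proteins and a ubiquitin receptor. PSMD2, a scaffold and the highest gene of this role, was at 114, 110 and 106 FPKM in NC and at 111, 111 and 113 FPKM in TP53INP2_OE, with overlap (0.02 ± 0.04, SE; adjusted p = 0.716). It was at 0.15 with GC content and length fitted out (adjusted p = 0.0322). PSMD1, the other scaffold, was at 34.5, 34.8 and 37.7 FPKM in NC and at 40.1, 39.8 and 41.1 FPKM in TP53INP2_OE, apart and higher (0.17 ± 0.04, SE; adjusted p = 0.0224). PSMD4, the ubiquitin receptor, was at 46.3, 44.6 and 46.7 FPKM in NC and at 42.2, 37.1 and 39.1 FPKM in TP53INP2_OE, apart and lower (-0.21 ± 0.05, SE; adjusted p = 0.0193). Neither PSMD1 nor PSMD4 passed with GC content and length fitted out, at 0.08 and -0.10. The PSMD1 call was lost without NC replicate 1 or 2 or TP53INP2_OE replicate 3 (adjusted p from 0.0679 to 0.0794), and the PSMD4 call without NC replicate 1 or 3 or TP53INP2_OE replicate 3 (0.0544 to 0.0660). The sum of the 3 genes was 192 ± 2.999 FPKM in NC and 191 ± 2.83 FPKM in TP53INP2_OE (SD, n = 3), and it overlapped.

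In the lid, 4 of 8 genes rose and 2 fell, or 50% and 25%, against 29.4% and 33.1% of all genes with a mean of 5 FPKM or more. With GC content and length fitted out, 1 rose and 1 fell. The lid's summed level overlapped between the groups at 209 ± 3.23 and 210 ± 1.64 FPKM (SD, n = 3). PSMD14, the deubiquitinase that removes ubiquitin chains, was at 18.2, 17.7 and 17 FPKM in NC and at 20.6, 22.4 and 20.9 FPKM in TP53INP2_OE. All TP53INP2_OE libraries were higher, with a log2 fold change of 0.26 ± 0.05 (SE; adjusted p = 0.00750). PSMD7, which pairs with PSMD14 in the particle, was at 25, 23.2 and 24.4 FPKM in NC and at 28.0, 30.2 and 29.8 FPKM in TP53INP2_OE (0.27 ± 0.05, SE; adjusted p = 0.00641). The pair moved by like amounts, but with GC content and length fitted out PSMD7 stayed at 0.23 (adjusted p = 0.0267) while PSMD14 was at 0.04 (adjusted p = 0.495). A noncoding transcript, AC009120.2, covers 30.7% of the PSMD7 exon bases on the opposite strand.

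The remaining lid genes are scaffold subunits. PSMD6 was at 9.27, 8.96 and 9.62 FPKM in NC and at 10.8, 12.2 and 11.4 FPKM in TP53INP2_OE (0.27 ± 0.05, SE; adjusted p = 0.0101). PSMD12 was at 17.1, 17 and 18.4 FPKM in NC and at 21.0, 22.2 and 20.4 FPKM in TP53INP2_OE (0.26 ± 0.05, SE; adjusted p = 0.00837). Both were apart and higher, and once GC content and length were fitted out they were at 0.07 and 0.06 and not past the threshold. PSMD3 (ENSG00000108344, GRCh38 chromosome 17, 39980807 to 39997959, plus strand) was at 38.1, 37.0 and 35.9 FPKM in NC and at 31.4, 27.9 and 30.1 FPKM in TP53INP2_OE. It was the lid gene that fell most, by a log2 fold change of -0.30 ± 0.05 (SE; adjusted p = 0.00618), and of -0.21 with GC content and length fitted out (adjusted p = 0.0224). PSMD8, the highest lid gene, was at 42.3, 41.9 and 42.8 FPKM in NC and at 39.9, 38.7 and 37.2 FPKM in TP53INP2_OE, apart and lower (-0.13 ± 0.04, SE; adjusted p = 0.0306), and at 0.02 once these were fitted out. The PSMD8 call was lost without NC replicate 1, 2 or 3 or TP53INP2_OE replicate 2 or 3 (adjusted p from 0.0602 to 0.0891). PSMD13 averaged 34.7 and 31.8 FPKM in NC and TP53INP2_OE (adjusted p = 0.0930), and PSMD11 25.9 and 26.9 FPKM (adjusted p = 0.365).

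Of the chaperones that assemble the 20S core, PSMG1 to PSMG4 act in pairs. The pairs moved in opposite directions, but only the PSMG2 call was kept with GC content and length fitted out. PSMG1 and PSMG2 form a dimer that builds the alpha ring. PSMG2 (ENSG00000128789, GRCh38 chromosome 18, 12658043 to 12725740, plus strand) was at 17.2, 17 and 17.8 FPKM in NC and at 19.7, 19.8 and 19.9 FPKM in TP53INP2_OE, all higher. Its log2 fold change was 0.18 ± 0.03 (SE; adjusted p = 0.00877), and 0.27 after removal of the GC and length relation (adjusted p = 0.0119). Over the 18 alternative settings it ran from 0.17 to 0.29. PSMG1 was at 17.7, 18.8 and 19.2 FPKM in NC and at 20.8, 21.3 and 23.0 FPKM in TP53INP2_OE, also apart (0.21 ± 0.05, SE; adjusted p = 0.0197), and at 0.20 with these fitted out (adjusted p = 0.0584). Its call was lost without NC replicate 1 or 2 or TP53INP2_OE replicate 3 (adjusted p from 0.0515 to 0.0677). Exons of CEP76, on the opposite strand, overlap 13.9% of the PSMG2 exon bases, and CEP76 had 193 to 266 reads per library against 772 to 936 for PSMG2.

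PSMG3 and PSMG4 form the other dimer of early core assembly, and both fell. PSMG3 was at 16.9, 16.7 and 17 FPKM in NC and at 14.4, 13.3 and 12.2 FPKM in TP53INP2_OE (-0.32 ± 0.06, SE; adjusted p = 0.00879). PSMG4 was at 2.55, 2.31 and 2.61 FPKM in NC and at 2.01, 1.60 and 1.94 FPKM in TP53INP2_OE (-0.29 ± 0.08, SE; adjusted p = 0.0314). Groups were apart for both, and once GC content and length were fitted out they were at -0.08 and -0.22 and not past the threshold. The PSMG4 call was lost without NC replicate 1, 2 or 3 or TP53INP2_OE replicate 2 or 3 (adjusted p from 0.0536 to 0.0963). The difference between the pairs was not tested. Exons of SLC22A23, on the opposite strand, overlap 13.3% of the PSMG4 exon bases, and SLC22A23 had more reads than PSMG4 in each library. POMP, which helps the core to close, was the highest of the chaperones at 66.7, 71.6 and 66.0 FPKM in NC and at 77.0, 88.5 and 69.8 FPKM in TP53INP2_OE. Its groups overlapped and its log2 fold change of 0.20 ± 0.08 (SE) was not past the threshold (adjusted p = 0.119). Without TP53INP2_OE replicate 3, the lowest POMP value of its group, the change was 0.28 and passed (adjusted p = 0.0370), as it did in 3 other settings.

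The 19S chaperones PSMD5, PSMD9 and PSMD10 escort the ATPases until the base is built. PSMD5, the highest of the 3, was at 19, 17.7 and 18.1 FPKM in NC and at 22.2, 20.3 and 21.2 FPKM in TP53INP2_OE, apart and higher (0.21 ± 0.05, SE; adjusted p = 0.0163). With GC content and length fitted out it was at 0.05, and its call was also lost without NC replicate 2 (adjusted p = 0.0594). PSMD10, also called gankyrin, averaged 15 and 17 FPKM in NC and TP53INP2_OE, with groups apart, and did not pass (adjusted p = 0.0719), although it did in 6 of the 18 alternative settings (0.0350 to 0.0461). PSMD9 averaged 1.26 and 1.22 FPKM, with overlap (adjusted p = 0.852). The sum of the 3 was 34.5 ± 1.60 FPKM in NC and 39.5 ± 1.53 FPKM in TP53INP2_OE (SD, n = 3), a difference of 14.4% with the groups apart. That sum was taken without GC content and length fitted out.

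Activators other than the 19S particle were also split. PSME4, which binds the ends of the core without ATP, was at 12.3, 12.6 and 12.3 FPKM in NC and at 15.4, 16.6 and 15.9 FPKM in TP53INP2_OE. It had the largest increase of the members, 0.34 ± 0.04 (SE; adjusted p = 0.00296), and was at 0.18 with GC content and length fitted out (adjusted p = 0.0264). The PSME4 call was lost with coding length fitted out too, at 0.13 (limma adjusted p = 0.0541). It was also lost with a replicate block in the GC and length fit (limma adjusted p = 0.0625). PSME1 and PSME2 form a mixed ring that opens the core in interferon-treated cells. PSME2 was at 25.1, 22.1 and 23.3 FPKM in NC and at 20.3, 19.2 and 19.97 FPKM in TP53INP2_OE, apart and lower (-0.23 ± 0.05, SE; adjusted p = 0.0151). The PSME2 call was lost with GC content and length fitted out, at -0.17 (limma adjusted p = 0.0668). PSME1 averaged 46.1 and 47.3 FPKM in NC and TP53INP2_OE, with overlap (limma adjusted p = 0.715). PSME3, the nuclear activator and the highest of this role, was at 46.7, 47.9 and 49.3 FPKM in NC and at 49.8, 53.6 and 53.4 FPKM in TP53INP2_OE, apart, but not past the threshold (0.12 ± 0.04, SE; adjusted p = 0.0624). Without TP53INP2_OE replicate 1 it passed, at 0.15 (adjusted p = 0.0291). PSMF1, named as a proteasome inhibitor, was at 20.8, 19.1 and 18.6 FPKM in NC and at 18.0, 16.5 and 17.4 FPKM in TP53INP2_OE. Its groups were apart and it did not pass either (-0.16 ± 0.05, SE; adjusted p = 0.0564). In the alternative settings PSME3 passed in 6 (adjusted p from 0.0233 to 0.0448) and PSMF1 in 4 (0.00642 to 0.0484).

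**Figure D4:**
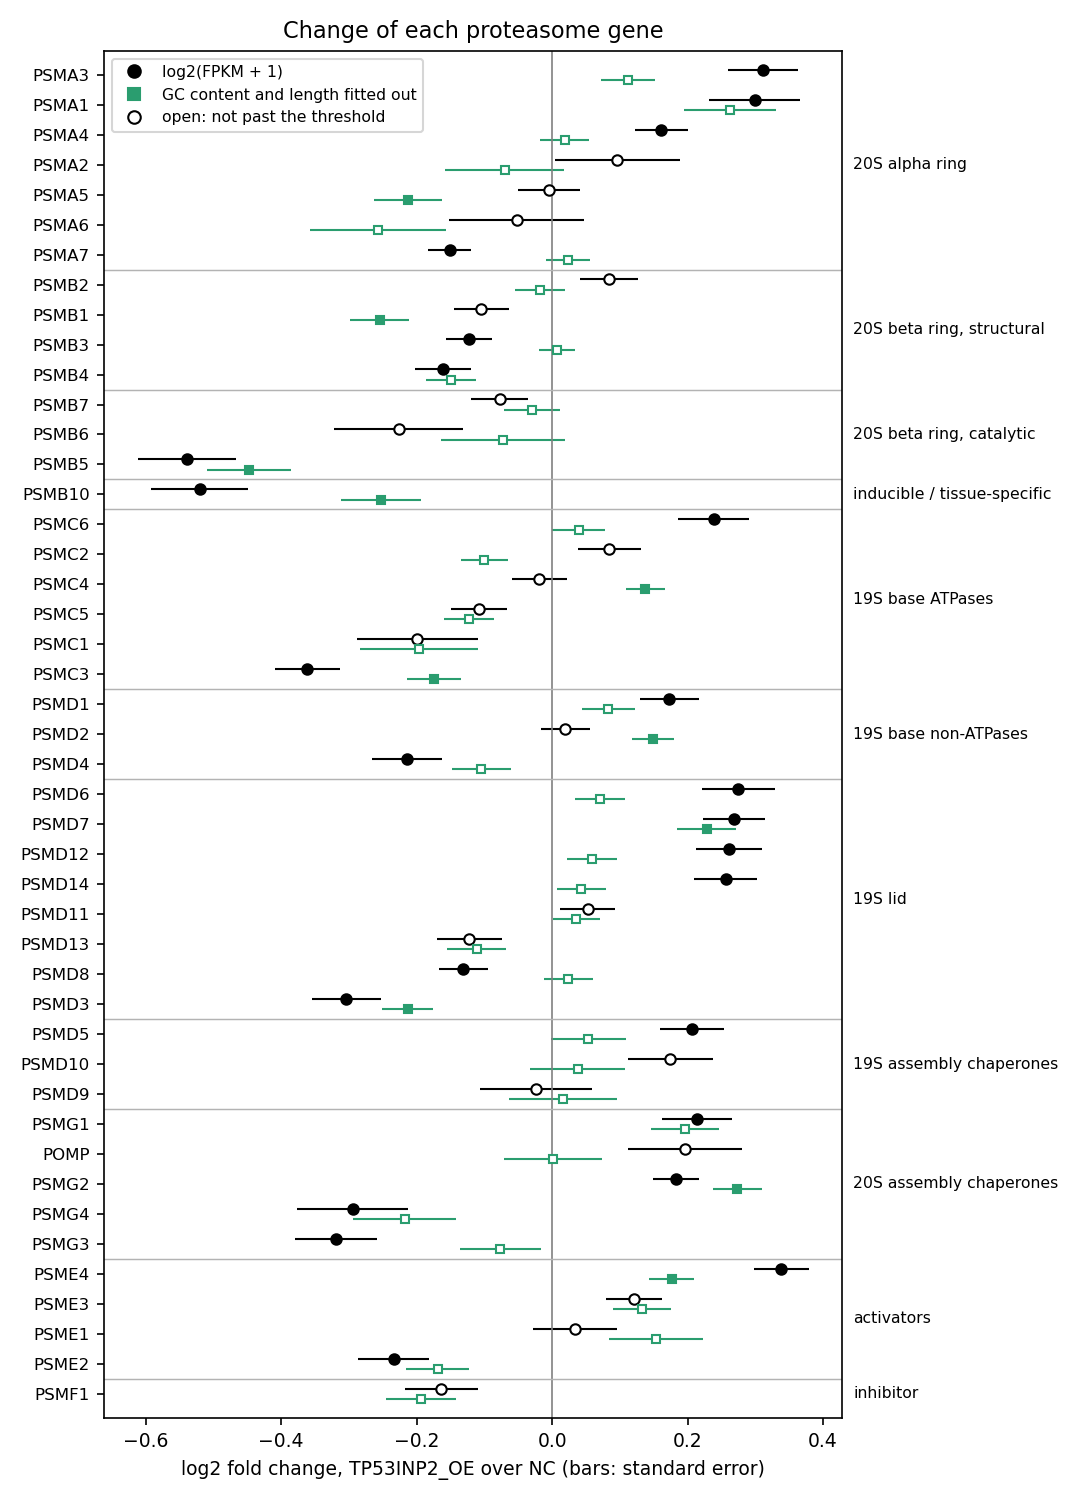
Log2 fold change of TP53INP2_OE over NC with its standard error for the 45 tested proteasome genes by role, before (circles) and after (squares) the relation to GC content and length was fitted out; filled symbols are past the adjusted p threshold of 0.05. PSMB5 is the lowest point of either kind, and many squares of the alpha ring, lid and 19S chaperones lie closer to 0 than their circles.

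What the members that rose shared was a lower GC content than those that fell. The 13 that rose had a median transcript GC content of 41.5% (32.0% to 52.2%), and the 12 that fell one of 53.3% (48.2% to 60.1%). Among the 15 members of lowest GC content, at most 42.1%, 8 rose and none fell; the other 7 did not pass the threshold. Among the 15 of highest GC content, at least 51.9%, 1 rose and 10 fell. The riser there was PSMG2. These counts were not set against those of all tested genes in the same GC ranges. Spearman's rho between GC content and log2 fold change was -0.71 over the 45 members and -0.78 over 11270 tested protein-coding genes, as a description across genes that share the same 6 libraries. After GC content and length were fitted out it was -0.13 over the members. The relation to GC content was thus not particular to the proteasome, and the fitted-out values above are given for that reason.

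**Figure D5:**
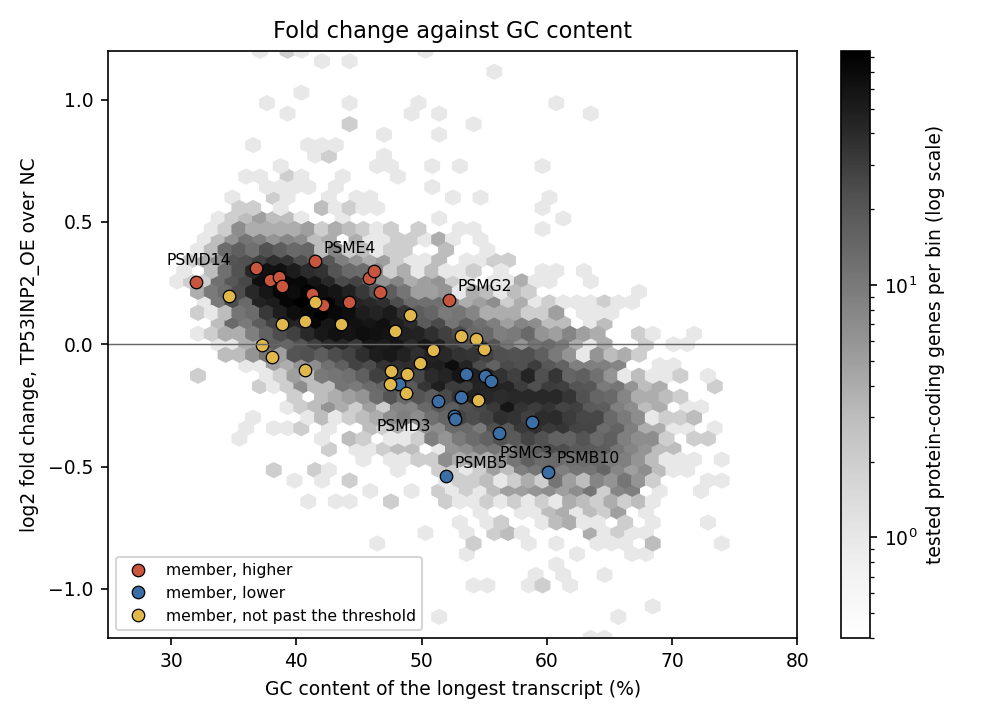
Log2 fold change against the GC content of the longest transcript, with tested protein-coding genes as shaded bins on a log scale, clipped at the edges of the axis, and the 45 members as points coloured by call. The members follow the band of all genes, with PSMB5 at its lower edge and PSMG2 toward its upper edge.

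Of 14 genes for proteins that bind the proteasome or, for TPP2, trim its products, 5 rose and 1 fell, or 35.7% and 7.14%. Their median log2 change was 0.09. The shares were 16.4% and 18.6% of all tested genes, and 29.4% and 33.1% in the fit of genes with a mean of 5 FPKM or more. None of the 6 called genes of this list kept its call with GC content and length fitted out. SEM1, a small subunit of the lid, and FBXO7 were newly lower there, at -0.36 and -0.25 (limma adjusted p = 0.0241 and 0.0334). ADRM1, a ubiquitin receptor of the base, was at 85.8, 87.4 and 81.4 FPKM in NC and at 66.8, 59.5 and 68.3 FPKM in TP53INP2_OE, apart and lower (-0.38 ± 0.06, SE; adjusted p = 0.00493). The proteasome deubiquitinases USP14 and UCHL5 both rose, USP14 from 25.5 ± 0.87 to 32.1 ± 1.63 FPKM (adjusted p = 0.00457) and UCHL5 from 12.1 ± 0.69 to 15.1 ± 1.74 FPKM (SD, n = 3; limma adjusted p = 0.0348). The UCHL5 call was lost without NC replicate 1, 2 or 3 or TP53INP2_OE replicate 2 or 3 (adjusted p from 0.0501 to 0.110). TPP2, a peptidase that trims the peptides released, rose from 23.1 ± 0.70 to 28.9 ± 1.73 FPKM (SD, n = 3; limma adjusted p = 0.00586).

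Among 8 genes that carry ubiquitinated proteins to the proteasome or extract them, 1 rose and 2 fell, or 12.5% and 25%. The shares were 16.4% and 18.6% of all tested genes, and 29.4% and 33.1% in the fit of genes with a mean of 5 FPKM or more. All 8 were at that level. BAG6, a chaperone for misplaced membrane proteins, fell from 55.5 ± 1.87 to 43.1 ± 1.84 FPKM (SD, n = 3; limma log2 fold change -0.36, adjusted p = 0.00310), and it was at -0.11 and not past the threshold with GC content and length fitted out (adjusted p = 0.0583). The ubiquilins split, with UBQLN4 falling from 25.1 ± 1.12 to 21.1 ± 1.68 FPKM (limma adjusted p = 0.0274) and UBQLN1 rising from 27.9 ± 0.22 to 32.4 ± 1.85 FPKM (limma adjusted p = 0.0145; SD, n = 3 for each). With GC content and length fitted out, UBQLN4 was at -0.07 and UBQLN1 at -0.01, neither past the threshold, and VCP, the segregase, was newly higher (0.11, adjusted p = 0.0472). Without NC replicate 1 the calls of UBQLN1 (adjusted p = 0.0540) and UBQLN4 (adjusted p = 0.0903) were lost, and without NC replicate 3 that of UBQLN4 (adjusted p = 0.0793).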

How the data were processed

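The authors deposited 1 table of FPKM values for 60843 genes in 6 libraries, with gene positions, lengths and types per the file headers. Per the labels' protocols, Trizol was used for RNA and an Illumina TruSeq kit for the libraries. Bowtie 0.12.2 and, as builds, GRCh38 and mm8 appear in the submitters' processing notes, without their use; the read assignment to genes, and whether it used strand, was not given in the sources used here. Positions were checked against GENCODE release 29 on GRCh38, where 96.2% of the gene IDs were found, 47 of 47 members among them. FPKM times gene length was divided by its smallest nonzero value in the library, taken as 1 read. This gave whole numbers for 100% of nonzero values, within a tolerance of 0.01. These recovered reads show depth and serve 1 alternative. The test ran on log2(FPKM + 1) of genes that averaged 0.5 FPKM or more, and NC and TP53INP2_OE were compared over all 6 libraries with limma 3.58.1 in R 4.3.3 (trend, Benjamini-Hochberg adjustment over all tested genes, threshold 0.05), after a test on simulated data. In the GC and length fit, splines with 5 degrees of freedom were fitted out of each library; GC content is that of the longest GENCODE transcript, known for 98.4% of tested genes. Shared exon bases and shared 50-base stretches come from the same annotation. Promoter windows were taken from RefSeq on GRCh38.p14, where 41 of 47 members matched.

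Every member is named, and those past the threshold, or highest in their role, are given in each library; from each list of partners the genes past the threshold are named, at most 4 by size of change. The members and lists were chosen with earlier results of these data known, and a few genes of the partner lists are not reported here. 18 alternative settings were run: pseudocount, filters, scalings, whole reads with voom, GC content with length or coding length, a replicate block, and each library left out.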

Additional observations from a re-analysis of the deposited data

How the results depend on the processing

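Of the 45 tested members, 13 rose and 12 fell. With GC content and length fitted out these became 5 and 6, and 659 genes of the table rose and 855 fell, against 2430 and 2753; with coding length fitted out too, 7 members rose and 9 fell, and 979 genes rose and 1112 fell. Leaving out 1 library at a time gave 8 to 13 members that rose and 6 to 11 that fell, and 1460 to 2203 genes that rose and 1816 to 2576 that fell, fewest without NC replicate 1, with 8 risers also without NC replicate 2. The difference in summed FPKM of members ran from -4.11% to -2.78% in these runs. The other filters, scalings and pseudocount kept these counts within 1.5 times. The cause of the differences was not tested.

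Replicate numbers are shared between groups, but same-numbered libraries did not deviate together (correlations over genes of 0.017, 0.012 and 0.011), so the numbers were not taken as pairs. A replicate block gave 15 members that rose and 12 that fell, and 1980 genes that rose and 2416 that fell. The block with GC content and length fitted out gave 1 and 4, and 267 genes that rose and 401 that fell.

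Some signs turned, among them those of called genes. After GC content and length were fitted out, with or without the block, log2 fold changes were -0.0699 for PSMA2, 0.0238 for PSMA7, -0.0179 for PSMB2, 0.0076 for PSMB3, -0.10 for PSMC2, 0.1377 for PSMC4, 0.0241 for PSMD8, 0.0162 for PSMD9, 0.0509 for UBA1 and -0.0066 for UBQLN1. With coding length too they were -0.0492 for PSMA2, 0.0397 for PSMA7, 0.0265 for PSMB3, -0.1321 for PSMC2, 0.1366 for PSMC4, 0.0333 for PSMD8, 0.0874 for PSMD9, -0.0173 for POMP, -0.0199 for PSMD14, 0.0022 for PSMG3, 0.0249 for MAFK, 0.0367 for UBA1 and -0.0358 for UBQLN1. Quantile normalization gave 0.0201 for PSMA5, 0.0099 for PSMA7 and 0.0141 for PSMC4, and TPM gave 0.012 for PSMA5. Leaving out 1 library gave -0.03 to 0.0267 for PSMA5, -0.019 to 0.0892 for PSME1 and -0.0083 to 0.0469 for PSMD2. None of these genes passed the threshold in a run with the turned sign except PSMC4 in either fit and PSMC2 with coding length.

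PSMB10, PSMG4, PSMA2, PSMA6 and PSMD9 have a mean below 5 FPKM and could not be tested under that filter. PSMB10, PSMA2 and PSMA6 had at most 100 reads in any library, so that 1 read is a visible step in their values.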

Other observations

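Genes that control the transcription of proteasome genes were split. NFE2L1, the factor that raises proteasome gene transcription when the proteasome is blocked, was at 66.7, 64.3 and 60.6 FPKM in NC and at 54.9, 49.6 and 54.2 FPKM in TP53INP2_OE, apart and lower (limma log2 fold change -0.27 ± 0.05, SE; adjusted p = 0.0106; -0.12 and not past the threshold with GC content and length fitted out). Its relatives moved the other way. NFE2L3 was at 27.1, 27.6 and 26.2 FPKM in NC and at 33.8, 33.8 and 33.3 FPKM in TP53INP2_OE (0.31 ± 0.03, SE; adjusted p = 0.00284), and NFE2L2, the factor of the antioxidant response, at 15.8, 16.3 and 15.8 FPKM against 19.4, 21.6 and 18.6 FPKM (0.29 ± 0.06, SE; adjusted p = 0.0101). Both also rose with GC content and length fitted out, at 0.28 and 0.24. MAFK, a small partner of these factors, fell from 11.1 ± 0.94 to 8.48 ± 1.09 FPKM (SD, n = 3; limma adjusted p = 0.0311), and was at -0.06 and not past the threshold with GC content and length fitted out (adjusted p = 0.659). The MAFK call was lost without NC replicate 1 or 2 or TP53INP2_OE replicate 1 or 2 (adjusted p from 0.0594 to 0.101). Of the 8 genes of this list, 3 rose and 2 fell, or 37.5% and 25%, against 16.4% and 18.6% of all tested genes. In the fit of genes with a mean of 5 FPKM or more, 29.4% rose and 33.1% fell.

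Of 4 genes that encode ubiquitin or the enzymes that activate it, 1 rose and 2 fell, or 25% and 50%. The shares were 16.4% and 18.6% of all tested genes, and 29.4% and 33.1% in the fit of genes with a mean of 5 FPKM or more. All 4 were at that level. UBB, which encodes a chain of ubiquitin units, fell from 138 ± 0.55 to 123 ± 6.36 FPKM (SD, n = 3; limma adjusted p = 0.0199). UBA6, a ubiquitin-activating enzyme, rose from 6.54 ± 0.06 to 9.04 ± 1.007 FPKM (limma adjusted p = 0.00748), and UBA1, the main enzyme of this kind, fell from 91.8 ± 1.97 to 83.6 ± 1.004 FPKM (limma adjusted p = 0.0169). With GC content and length fitted out none of these passed the threshold, and UBA1 was at 0.05. The UBB call was lost when NC replicate 1, 2 or 3 or TP53INP2_OE replicate 3 was left out (adjusted p from 0.0530 to 0.0658). The UBA1 call was lost without NC replicate 1 or 2 or TP53INP2_OE replicate 3 (adjusted p from 0.0524 to 0.0679).

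The antioxidant response element core TGACNNNGC was found in 14 of 49 promoter windows of the members, or 28.6%, against 13.3% of all 35116 windows of the table and 14.5% of the 13300 windows of tested protein-coding genes. The windows with a match belonged to 14 members: PSMA4, PSMB3, PSMC4, PSMC5, PSMD1, PSMD12, PSMD3, PSMD5, PSMD9, PSME1, PSME2, PSME4, PSMG1 and PSMG2. It was in 7 of 16 windows of members that rose, 3 of 10 of members that fell and 4 of 21 of members that did not pass, the remaining windows being those of the untested members. The CCAAT box was in 38.8% of the members' windows and in 34.6% of all windows. By call, it was in 6 of 16 windows of risers, 5 of 10 of fallers and 7 of 21 of members not past the threshold. Median GC content was 63.5% in windows of risers and 55.8% in those of fallers, against 58.7% over all windows. No test was run on the shares of windows with a match, and several genes have more than 1 window.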
